A study of Mus musculus with 24 samples.

Results

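The genes described here are the cytosolic ribosomal protein genes of the mouse and the gene copies named after them. They were chosen by symbol: every gene of the annotation table whose symbol begins with Rpl or Rps and a number, without the S6 kinases (Rps6k), which share the prefix only by name. The rule found 185 of the 20961 genes in the table. By symbol, 73 are parent genes (43 of the large and 30 of the small ribosomal subunit), 102 are copies (mostly -ps symbols), 9 are paralogs such as Rpl3l and Rps4l, and 1, Rps19bp1, encodes a protein that binds Rps19 and is no part of the ribosome. The rule itself used no measured value, but it was set with earlier results of these data known.

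The values come from RNA-seq of mouse heart, 24 libraries in 12 groups of 2. The groups were male and female mice of 3 inbred wild-type strains on 2 diets: NZO/HlLtJ, an obese and diabetes-prone strain, CAST/EiJ, a wild-derived strain, and C57BL/6J, the strain of the reference genome. The mice received a diet of 44% fat plus fiber (high fat and high sugar) or of 10% fat plus fiber (control) from week 6, and hearts were collected at week 15. Nothing in the labels ties each library to an animal of its own, so the spread behind each p-value is that between libraries and may be technical. Levels are CPM (a gene's count relative to its library's total), with totals scaled by edgeR's TMM factors, and a gene was called changed at an adjusted p under 0.05 in edgeR's quasi-likelihood test with Benjamini-Hochberg adjustment over the 17203 genes tested.

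A ribosome is built from rRNA and a fixed set of proteins, most of them present once per particle, and nearly all of the proteins are encoded by a single intron-containing gene. Because the mRNAs are short and abundant, they have been copied back into the genome many times. Most of these processed copies lack introns and are close to the parent's mRNA in sequence, so that a short read may match both. Many ribosomal protein mRNAs begin with a C followed by a run of pyrimidines, the 5′ terminal oligopyrimidine (TOP) tract, through which mTOR and LARP1 control their translation. Heart and skeletal muscle also express Rpl3l, a striated-muscle paralog of Rpl3.

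The libraries held between 30205100 and 52254100 assigned counts, and the members took between 0.761% and 0.967% of them. All 10 cardiomyocyte markers examined were present, with summed levels of 68877 to 83873 CPM in NZO/HlLtJ, 69441 to 84787 CPM in CAST/EiJ and 72262 to 77692 CPM in C57BL/6J. Mitochondrially encoded genes took 20.9% to 23.9% of counts in NZO/HlLtJ, 20.2% to 23.4% in CAST/EiJ and 25.8% to 28.8% in C57BL/6J. Of the 185 members, 108 passed the filter on low counts, namely all 73 parents, 28 of the 102 copies, 6 of the 9 paralogs and Rps19bp1. The other 77 members were too low to test, and 88 of the 102 copies averaged under 1 CPM.

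The deposited counts are estimates that can split a read between genes, and this touches the ribosomal protein genes more than most. Among the parents, 76.5% of values were not whole numbers, against 19.3% of the values of all genes. Few parents, among them Rps9, Rpl8, Rpl32 and Rps21, had whole counts in every library. Of the 102 copies, 99 could be aligned to the parent's transcript, at a median identity of 99.1% and a lowest of 88.8%. A further 138 genes with other names (Gm symbols) aligned to 52 of the parents at 95% identity or more.

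The largest strain differences among the members fell on parents and copies that differ at few bases. The coding bases around such differences are printed for 5 pairs, to show how few bases separate parent and copy. The capital letters mark the bases that differ between parent and copy, positions are counted from 1 at the first base of the parent's coding sequence, and the parent's base is given first. Coordinates are of GRCm38, each sequence reads 5′ to 3′ on the gene's own strand, and the transcripts are those of GENCODE M21.

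Rpl9 encodes a large subunit protein. Its copy Rpl9-ps6, on chromosome 19, differs from it at 1 of 579 coding bases, G266A, which changes the amino acid. The parent's window crosses an intron at chr5:65389578-65390405 on the minus strand and the copy's lies at chr19:32466261-32466311 on the minus strand.
Rpl9: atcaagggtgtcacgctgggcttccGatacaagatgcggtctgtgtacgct
Rpl9-ps6: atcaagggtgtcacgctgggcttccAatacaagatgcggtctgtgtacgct

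Rpl19, also of the large subunit, and its copy on chromosome 8 differ at 1 of 591 coding bases, G191A, which changes the amino acid. The windows are chr11:98028399-98028449 for the parent and chr8:19493101-19493151 for the copy, both on the plus strand.
Rpl19: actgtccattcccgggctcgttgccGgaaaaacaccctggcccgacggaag
Rpl19-ps11: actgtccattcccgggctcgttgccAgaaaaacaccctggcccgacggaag

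Rps13, a small subunit protein, and Rps13-ps1 differ at 2 of 456 coding bases, T411C and A429G, both silent. The parent's window spans an intron at chr7:116331570-116332415 on the minus strand, and the copy's is chr8:87048105-87048155 on the plus strand.
Rps13: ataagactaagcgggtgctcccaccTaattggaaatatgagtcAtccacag
Rps13-ps1: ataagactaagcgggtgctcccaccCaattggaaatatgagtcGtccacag

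Rpl37 and its retrotransposed copy Rpl37rt differ at 1 of 294 coding bases, the silent G249A. The windows are chr15:5117703-5118616 on the plus strand, across an intron, for the parent, and chr5:115103248-115103298 on the minus strand for the copy.
Rpl37: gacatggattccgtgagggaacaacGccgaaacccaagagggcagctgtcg
Rpl37rt: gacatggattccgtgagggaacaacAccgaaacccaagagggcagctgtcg

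Rpl23a and the copy named Gm10335 differ at 1 base of 468 aligned, C248T, which changes the amino acid. The windows are chr11:78181530-78181580 on the minus strand and chr10:14523300-14523350 on the plus strand.
Rpl23a: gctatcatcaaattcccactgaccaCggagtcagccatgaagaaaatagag
Gm10335: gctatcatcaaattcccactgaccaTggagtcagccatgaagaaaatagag

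Several copies carried no difference at all over the aligned coding bases. Rpl27-ps3 matched Rpl27 at all 411 coding bases, Rpl10a-ps1 matched Rpl10a at all 654, and Rps12-ps3 matched the 387 coding bases of Rps12 that it covers. Over these bases a read holds nothing by which to tell the 2 loci apart in the reference genome.

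CAST/EiJ hearts were first compared with C57BL/6J hearts, over both sexes and diets (8 libraries each). In CAST/EiJ the parents Rpl9, Rpl19, Rpl17, Rpl27 and Rps12 were between 3.33 (Rpl27) and 6.46 (Rps12) higher than in C57BL/6J on the log2 scale, and their copies were close to 0 CPM. Rps13, Rpl37 and Rpl10 went the other way. Of the 108 tested members, 65 were called, 30 higher and 35 lower, which is 60.2% against 58.8% of all genes tested in the same comparison. The parents were split between 21 higher and 22 lower of 73, where 29.1% of all genes were higher and 29.7% lower, and had a median log2 fold change of -0.02, against 0.00 for all genes.

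Rpl9 had its lowest, median and highest levels at 144.5, 155.7 and 169.6 CPM in CAST/EiJ, against 4.11, 6.62 and 7.83 CPM in C57BL/6J. Rpl9-ps6 stood at 0, 0 and 0.138 CPM in CAST/EiJ, against 127.2, 141.9 and 150.2 CPM in C57BL/6J. Neither gene's ranges overlapped between the strains. Parent and copy together held 156.1 ± 9.7 CPM in CAST/EiJ and 146.6 ± 8.27 CPM in C57BL/6J (SD, n = 8 each). The parent alone was thus 4.61 ± 0.13 higher on the log2 scale (SE, adjusted p = 2.53e-13, edgeR), and the sum was 0.09 ± 0.04 higher and not called (adjusted p = 0.066, edgeR).

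The same exchange was seen for Rpl19. The parent held 162.1 ± 9.27 CPM in CAST/EiJ and 11.5 ± 1.80 CPM in C57BL/6J, and Rpl19-ps11 held 0.184 ± 0.148 CPM in CAST/EiJ and 141.6 ± 5.59 CPM in C57BL/6J (SD, n = 8 each). A log2 difference of 3.83 ± 0.10 in the parent (SE, adjusted p = 2e-14, edgeR) became 0.08 ± 0.03 in the sum (adjusted p = 0.026, edgeR), which remained past the threshold.

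Rpl17 lines part of the exit tunnel of the large subunit. It averaged 127.6 CPM in CAST/EiJ and 4.05 CPM in C57BL/6J, and Rpl17-ps8 averaged 0.842 CPM in CAST/EiJ and 130.2 CPM in C57BL/6J. Rpl27, another large subunit protein, averaged 75.8 CPM in CAST/EiJ and 7.57 CPM in C57BL/6J, with Rpl27-ps3 at 0.224 CPM in CAST/EiJ and 75.2 CPM in C57BL/6J. The log2 differences of the parents were 4.99 and 3.33, and those of the sums were -0.06 (adjusted p = 0.15, edgeR) and -0.12 (adjusted p = 0.0044, edgeR). For both genes no library of one strain reached the range of the other, in parent or copy.

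Rps12 of the small subunit kept a larger difference after the sum than these genes did. The parent averaged 70.5 CPM in CAST/EiJ and 0.909 CPM in C57BL/6J, and Rps12-ps3 averaged 2.42 CPM in CAST/EiJ and 58.0 CPM in C57BL/6J. Together they held 73.0 ± 4.70 CPM in CAST/EiJ and 59.0 ± 4.25 CPM in C57BL/6J (SD, n = 8 each). The sum was 0.31 ± 0.04 higher in CAST/EiJ on the log2 scale (SE, adjusted p = 3.6e-06, edgeR).

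Other families moved in the opposite direction, toward the copy in CAST/EiJ. Rps13 had its lowest, median and highest levels at 14.2, 17.5 and 21.9 CPM in CAST/EiJ, against 77.3, 83.1 and 88.0 CPM in C57BL/6J. Rps13-ps1 stood at 62.2, 68.4 and 74.7 CPM in CAST/EiJ, against 0, 0.164 and 0.434 CPM in C57BL/6J. The parent's log2 fold change was -2.29 ± 0.04 (SE, adjusted p = 2.3e-18, edgeR), and the sum differed by 0.03 ± 0.03 (adjusted p = 0.54, edgeR).

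Rpl37 averaged 35.0 CPM in CAST/EiJ and 66.3 CPM in C57BL/6J, and Rpl37rt averaged 34.5 CPM in CAST/EiJ and 1.69 CPM in C57BL/6J, so that 49.6% of the family's counts in CAST/EiJ and 2.48% in C57BL/6J were assigned to the copy. The parent's log2 fold change of -0.92 ± 0.04 (SE, adjusted p = 5.28e-13, edgeR) became 0.03 ± 0.04 in the sum (adjusted p = 0.55, edgeR). Rpl10, which joins the large subunit late in its assembly, was assigned mostly to its copies in every strain. Its 3 copies, mainly Rpl10-ps3, took 84.6% of the family's counts in NZO/HlLtJ, 91.2% in CAST/EiJ and 85.3% in C57BL/6J, and the sum differed by 0.05 between CAST/EiJ and C57BL/6J (adjusted p = 0.27, edgeR).

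**Figure D1:**
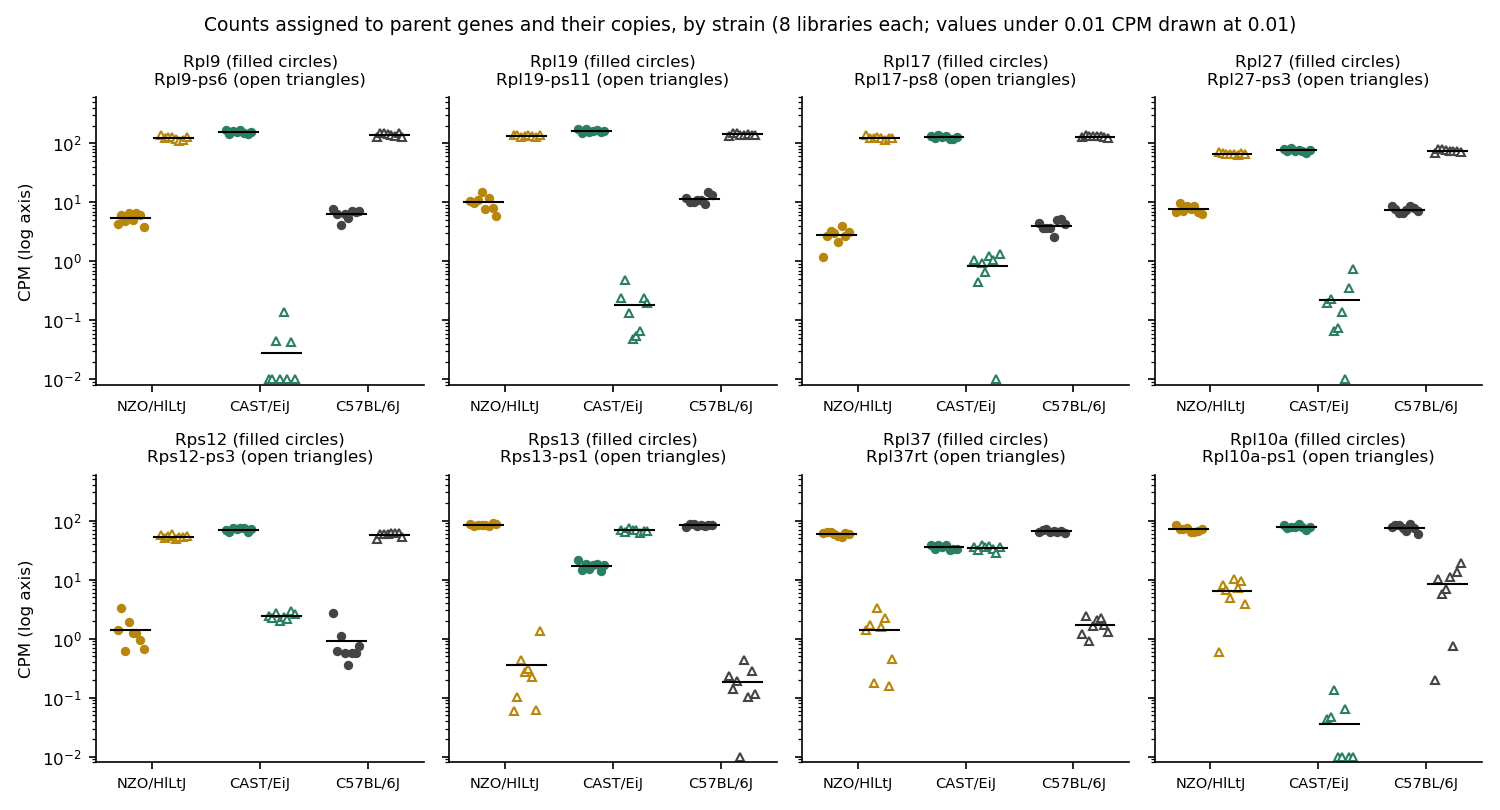
CPM of 8 parent genes (filled circles) and their copies (open triangles) on a log axis, with 8 libraries per strain in the order NZO/HlLtJ, CAST/EiJ and C57BL/6J and lines at the means. Values under 0.01 CPM are drawn at 0.01. In CAST/EiJ the circles of Rpl9, Rpl19, Rpl17, Rpl27 and Rps12 lie high and the triangles low, and for Rps13 the positions are exchanged.

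The share of a family's counts assigned to its copies was at least 5% in some strain for 14 of the 45 families with a copy. In Rpl9 it was 95.8% in NZO/HlLtJ, 0.0483% in CAST/EiJ and 95.6% in C57BL/6J. Other families showed no such exchange. In Rpl31 the copies held 14.2% in NZO/HlLtJ, 14.4% in CAST/EiJ and 13.9% in C57BL/6J. In Rps16 they held 25.3% in NZO/HlLtJ, 24.8% in CAST/EiJ and 24.1% in C57BL/6J. In Rps23 they held 24.9% in NZO/HlLtJ, 25.6% in CAST/EiJ and 24.5% in C57BL/6J, so the split of these 3 families was nearly the same in every strain. Their main copies, Rpl31-ps8, Rps16-ps2 and Rps23-ps1, matched the parents at 100% of aligned bases. Rpl27-ps3 and Rps12-ps3, of families with an exchange, also matched at 100% of aligned bases. These matches are within the reference genome. Sequences of the other strains were not compared, and the part of sequence identity in the exchange was not tested. The share varied between libraries of 1 strain for Rpl10a, which forms the mobile L1 stalk, from 0.680% to 13.7% in NZO/HlLtJ and from 0.261% to 24.4% in C57BL/6J, while it did not exceed 0.163% in CAST/EiJ. The mean share of the Rpl10a copy was 8.29% in NZO/HlLtJ, 0.0418% in CAST/EiJ and 10.1% in C57BL/6J.

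Some copies outside the symbol rule showed the same exchange. This set was chosen after seeing the data, by alignment to the parents' transcripts, and 14 of the 138 averaged at least 1 CPM. Of these 14, 9 differed by more than 1 on the log2 scale between CAST/EiJ and C57BL/6J, 5 of them higher and 4 lower in CAST/EiJ. The other 5 had log2 fold changes between -0.38 and 0.16, among them Gm10275, a copy of Rpl12, at 108.3 CPM in CAST/EiJ and 114.7 CPM in C57BL/6J, and Gm9794, a copy of Rpl23, at 43.1 CPM in CAST/EiJ and 43.0 CPM in C57BL/6J. Gm10335, the copy of Rpl23a printed above, averaged 0.159 CPM in CAST/EiJ and 90.2 CPM in C57BL/6J, while Rpl23a averaged 195.5 CPM in CAST/EiJ and 122.8 CPM in C57BL/6J. The wider sums add every aligned copy of a family, not only the copy named. In that sum, with Gm10335 in it, the log2 difference of Rpl23a of 0.67 (adjusted p = 2.85e-13, edgeR) became -0.12 (adjusted p = 0.0026, edgeR), a change of sign.

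For Rpl7, Gm12174 averaged 0.529 CPM in CAST/EiJ and 85.4 CPM in C57BL/6J, and the difference of 0.54 became -0.13 in the wider sum. For Rpl27a, Gm7536 averaged 11.8 CPM in CAST/EiJ and 64.1 CPM in C57BL/6J, and 0.87 became 0.08. Rpl29 went the other way, with Gm10709 at 63.0 CPM in CAST/EiJ and 0.157 CPM in C57BL/6J. Another copy, Gm8210, averaged 4.15 CPM in CAST/EiJ and 0.0123 CPM in C57BL/6J. In the wider sum the difference of Rpl29 of -2.14 became -0.10 (adjusted p = 0.048, edgeR). Rpl5, which carries 5S rRNA into the large subunit, was 1.15 higher in CAST/EiJ as a parent alone and -0.22 in the wider sum, with Gm15500 in it (adjusted p = 5.2e-05, edgeR). Gm15500 itself held 144.6 CPM in CAST/EiJ and 187.4 CPM in C57BL/6J, so most of this family's counts lay on the copy in both strains.

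Summed over the members of each family, 44 of 80 tested families were called, 22 higher and 22 lower, in a table in which 58.8% of all rows were called. With the copies of other names added, 47 were called, 19 higher and 28 lower, in a table with 58.9% called. The number of parents or paralogs with an absolute log2 difference over 1 was 11 alone, 5 after the sum over members and 2 after the wider sum. Those 2 were Rps15 and Rps4l. Over 0.5 the numbers were 16, 8 and 2. Of the 45 families with a copy, 30 had a called parent, 25 of which were also called as a sum. Whether the counts of a pair followed the transcription of each locus or the assignment of reads between near-identical sequences cannot be told apart from these tables.

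**Figure D2:**
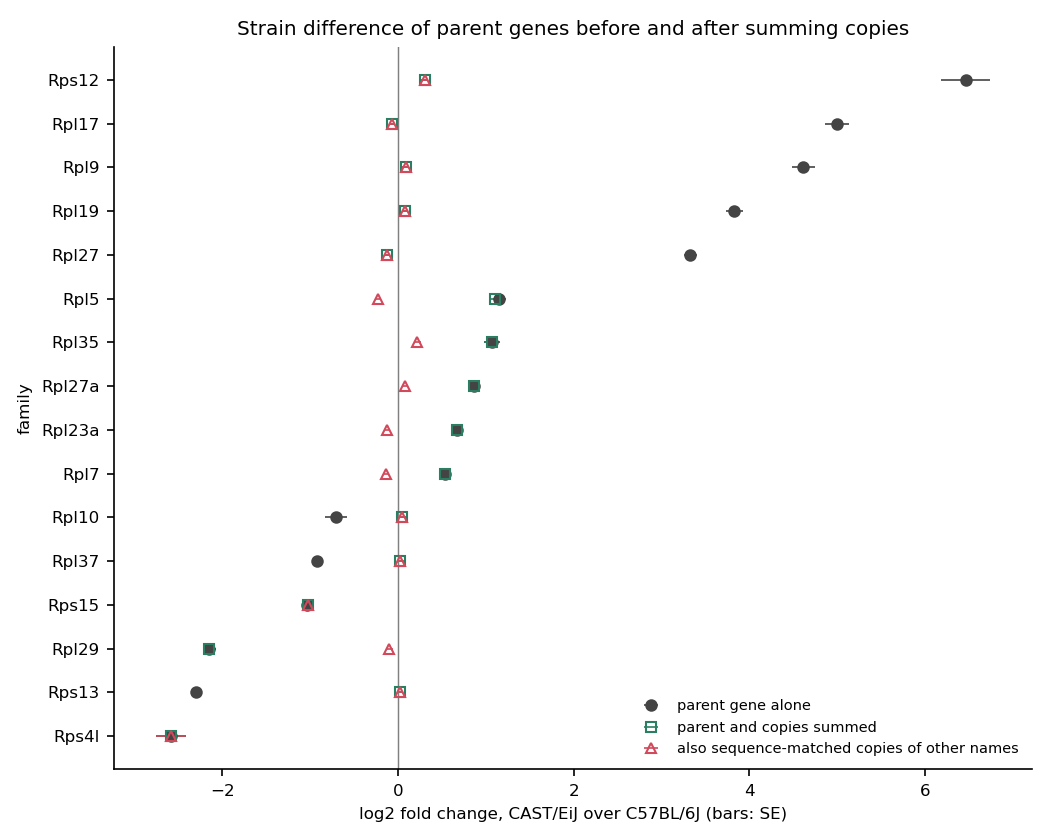
Log2 fold change of CAST/EiJ over C57BL/6J (x axis, bars are SE) for families whose parent gene alone differed by at least 0.5, drawn for the parent alone (filled circles), the parent with its copies (squares) and also with sequence-matched copies of other names (triangles). Most triangles lie near 0, and Rps15, at -1.03, does not move.

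The CAST/EiJ differences that the sums left in place included genes with a lower share of values that were not whole than the parents together (76.5%). Rps15 encodes a small subunit protein near the decoding site. Of its values 29.2% were not whole, above the 19.3% of all genes, so its reads were not free of splitting. Its lowest, median and highest levels were 70.3, 81.8 and 88.8 CPM in CAST/EiJ, against 147.3, 169.7 and 173.3 CPM in C57BL/6J, with no overlap. The log2 fold change was -1.03 ± 0.04 (SE, adjusted p = 1.8e-13, edgeR).

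Rps9, an early-binding protein of the small subunit with whole counts in every library, averaged 149.8 ± 7.90 CPM in CAST/EiJ and 210.6 ± 6.85 CPM in C57BL/6J (SD, n = 8 each). Its log2 fold change was -0.49 ± 0.03 (SE, adjusted p = 2.3e-10, edgeR), and the strains did not overlap. Rpl8, likewise with whole counts, was 0.14 higher on the log2 scale (adjusted p = 0.00131, edgeR). Rpl32 and Rps21 had log2 fold changes of -0.01 and -0.08 and did not pass the test.

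Rpl3, a protein close to the peptidyl transferase centre, was higher in CAST/EiJ, at 163.9 ± 7.28 CPM against 126.0 ± 10.8 CPM in C57BL/6J (SD, n = 8 each), with no overlap and a log2 fold change of 0.38 ± 0.06 (SE, adjusted p = 3.13e-05, edgeR). It is less free of split reads, since 87.5% of its values were not whole. Rpl13a was 0.24 higher (adjusted p = 3.7e-05, edgeR) and Rpl34 0.22 higher (adjusted p = 6.71e-05, edgeR). Rps2, at the mRNA entry of the small subunit, had a log2 fold change of -0.33 (adjusted p = 2.77e-08, edgeR). Groups did not overlap for 23 of 73 parents (31.5%), against 27% of all genes. Within the first range of the sample identifiers, where each strain had 4 libraries, 17 parents were called higher and 15 lower. The share of all genes called there is not given here. Cell type markers differed as well, where 29.1% of all genes were higher and 29.7% lower. Called lower in CAST/EiJ were 6 of 8 T and NK cell, 4 of 8 macrophage and 3 of 6 smooth muscle and pericyte markers. So were 3 of 4 Schwann cell and 3 of 8 fibroblast markers. Called higher were 3 of 6 red blood cell, 2 of 8 endothelial and 1 of 8 fibroblast markers. Their part was not tested.

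Rpl22 and its paralog Rpl22l1 moved in opposite directions in CAST/EiJ. The Rpl22 protein is known in mouse to bind and repress the Rpl22l1 mRNA. Rpl22 averaged 55.5 ± 2.99 CPM in CAST/EiJ and 70.9 ± 3.29 CPM in C57BL/6J (SD, n = 8 each), a log2 fold change of -0.35 (adjusted p = 6.6e-08, edgeR) with no overlap. Rpl22l1 averaged 18.98 ± 2.22 CPM in CAST/EiJ and 14.8 ± 2.09 CPM in C57BL/6J, a log2 fold change of 0.36 (adjusted p = 0.000189, edgeR), with overlapping ranges. Per kilobase of transcript, Rpl22l1 stood at 34.4 CPM in CAST/EiJ and 26.8 CPM in C57BL/6J, below Rpl22 at 117.0 CPM in CAST/EiJ and 149.6 CPM in C57BL/6J.

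Rps4l, a paralog of the X-linked Rps4x on chromosome 6 that aligned to it at only 80.1% identity, had whole counts in all libraries. It was low in both other strains, at 3.02 ± 1.01 CPM in NZO/HlLtJ, 2.69 ± 0.806 CPM in CAST/EiJ and 15.8 ± 2.07 CPM in C57BL/6J (SD, n = 8 each). The highest library outside C57BL/6J held 4.39 CPM and the lowest within it 13.0 CPM. The log2 fold changes against C57BL/6J were -2.42 ± 0.17 in NZO/HlLtJ (SE, adjusted p = 1.53e-08, edgeR) and -2.58 ± 0.17 in CAST/EiJ (SE, adjusted p = 2.36e-09, edgeR). Both comparisons share the C57BL/6J libraries. Rps4x itself averaged 188.0 CPM in NZO/HlLtJ, 205.6 CPM in CAST/EiJ and 216.2 CPM in C57BL/6J.

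Rpl3l was the only member called higher in NZO/HlLtJ than in C57BL/6J. Its lowest, median and highest levels were 148.9, 165.8 and 183.9 CPM in NZO/HlLtJ, 140.0, 164.4 and 186.6 CPM in CAST/EiJ, and 135.5, 145.2 and 169.2 CPM in C57BL/6J, so the 3 ranges overlapped. The log2 fold changes over C57BL/6J were 0.16 ± 0.04 in NZO/HlLtJ (SE, adjusted p = 0.00191, edgeR) and 0.14 ± 0.04 in CAST/EiJ (SE, adjusted p = 0.00381, edgeR). NZO/HlLtJ and CAST/EiJ differed by 0.03 (adjusted p = 0.562, edgeR).

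Per kilobase, Rpl3l stood at 120.9 CPM in NZO/HlLtJ, 118.8 CPM in CAST/EiJ and 108.0 CPM in C57BL/6J, and Rpl3 at 84.8 CPM in NZO/HlLtJ, 121.4 CPM in CAST/EiJ and 93.3 CPM in C57BL/6J. On this scale Rpl3l stood above its parent in NZO/HlLtJ and C57BL/6J and level with it in CAST/EiJ. The coding sequences of the 2 genes are identical at 73.7% of aligned positions, and all counts of Rpl3l were whole. Across the 24 libraries, which share strain and depth, the genes of at least 10 CPM most like Rpl3l by Spearman's rho were Slc4a3, a chloride and bicarbonate exchanger, at 0.852, Cpsf2 at 0.787 and Sh3bp5l at 0.763, of 8040 genes compared. Rpl3 had a rho of -0.0974.

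The remaining paralogs differed little. Rps27l averaged 18.6 CPM in NZO/HlLtJ, 19.2 CPM in CAST/EiJ and 19.3 CPM in C57BL/6J, Rpl7l1 averaged 31.5 CPM in NZO/HlLtJ, 31.5 CPM in CAST/EiJ and 32.7 CPM in C57BL/6J, and neither was called in any strain comparison. Rpl36al was 0.13 higher in CAST/EiJ than in C57BL/6J on the log2 scale (adjusted p = 0.00606, edgeR). Rpl39l, known from the mouse testis, did not exceed 0.204 CPM in any library. Rps19bp1 was higher in CAST/EiJ, at 5.02 CPM against 3.75 CPM in C57BL/6J (log2 fold change 0.42, adjusted p = 0.000319, edgeR).

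**Figure D3:**
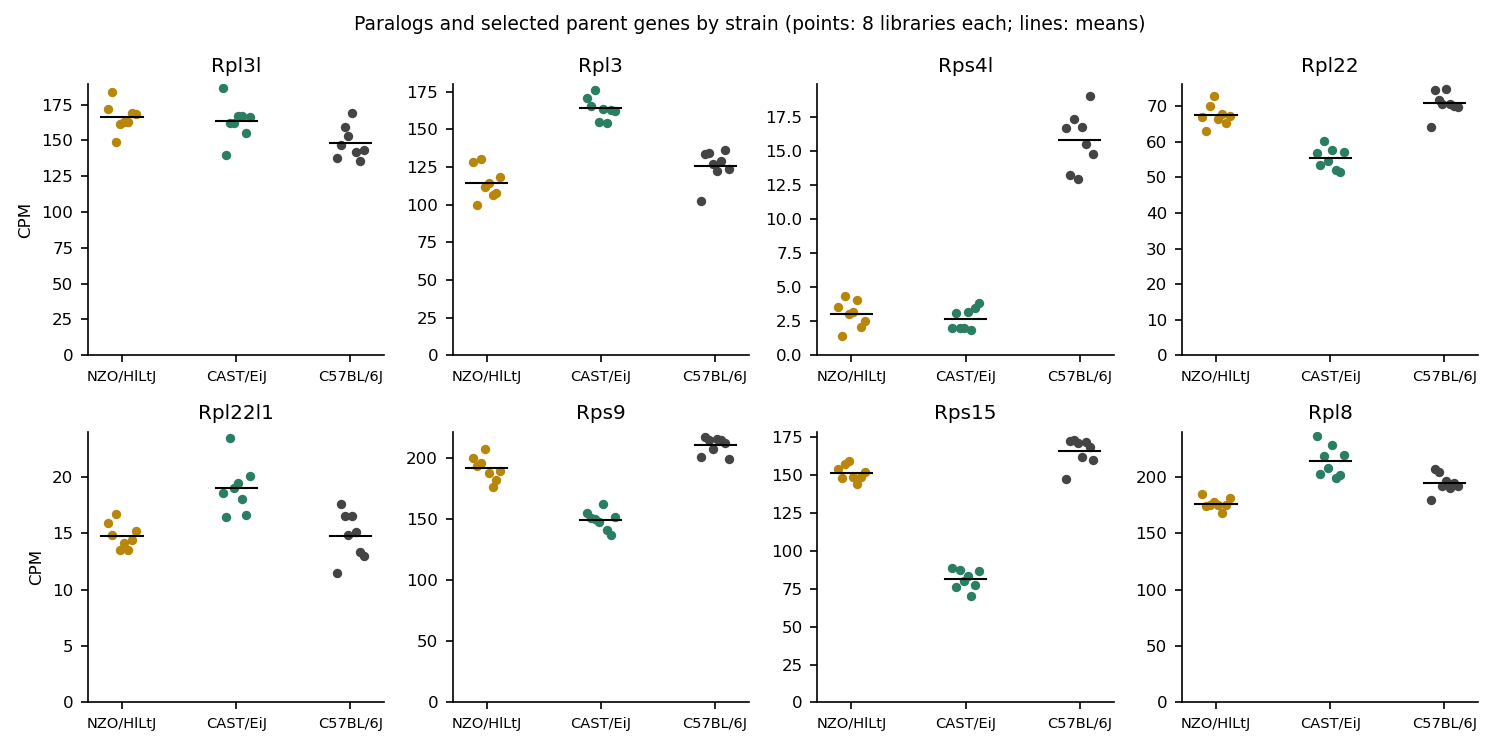
CPM of Rpl3l, Rpl3, Rps4l, Rpl22, Rpl22l1, Rps9, Rps15 and Rpl8 in each of 8 libraries per strain (points), in the order NZO/HlLtJ, CAST/EiJ and C57BL/6J, with lines at the means and axes from 0. Rps4l is high in C57BL/6J only, and Rps9, Rps15 and Rpl22 are lowest in CAST/EiJ.

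NZO/HlLtJ hearts were compared with C57BL/6J hearts in the same way, and here the parents were lower as a group by a small amount. Of 108 tested members 57 were called (52.8%, against 35.5% of all genes), 1 higher and 56 lower. Lower calls were made for 50 of the 73 parents and higher calls for none, where 17.6% of all genes were lower. They included 27 of 43 large subunit and 23 of 30 small subunit parents. Of the 73 fold changes 67 were negative, against 49.95% of those of all genes. Their median was -0.14, against 0.00 for all genes.

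The size of the difference varied with the gene. Rps2 had the highest counts of the parents, with its lowest, median and highest levels at 252.4, 277.2 and 308.8 CPM in NZO/HlLtJ, against 342.4, 356.5 and 378.7 CPM in C57BL/6J. The groups did not overlap, and the log2 fold change was -0.37 ± 0.03 (SE, adjusted p = 1.77e-08, edgeR). Rps19, the gene most often mutated in human Diamond-Blackfan anaemia, had median levels of 51.8 CPM in NZO/HlLtJ and 62.7 CPM in C57BL/6J, with overlapping ranges, and a log2 fold change of -0.26 (adjusted p = 6.47e-06, edgeR). Rpl28 was lower by a log2 fold change of -0.23 (adjusted p = 0.000109, edgeR) and Rpl35a by one of -0.21 (adjusted p = 1.5e-05, edgeR), both without overlap.

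Among parents above 10 CPM in both strains, Rpl21 had the largest difference, -0.49 ± 0.04 on the log2 scale (SE, adjusted p = 2.33e-08, edgeR), with 49.7 ± 2.69 CPM in NZO/HlLtJ and 69.6 ± 2.75 CPM in C57BL/6J (SD, n = 8 each). With its copies of other names added (among them Gm10163, at 5.6 CPM in NZO/HlLtJ and 0.0629 CPM in C57BL/6J), the difference was -0.24 (adjusted p = 1.6e-05, edgeR). Rpl17 showed -0.54 as a parent at 2.78 CPM in NZO/HlLtJ and 4.05 CPM in C57BL/6J, and -0.08 with its copies (adjusted p = 0.09, edgeR).

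Sums over families changed little else in this comparison. They gave 55 called families of 80, 1 higher and 54 lower, beside 35.6% of all rows called. The wider sums gave 57, 1 higher and 56 lower, beside 35.7%. The median over families was -0.14 in each case. Of the 8 tested parents and paralogs with whole counts in every library, 6 were called lower, where 17.6% of all genes were, and Rpl3l was called higher. The 6 include the paralog Rps4l, whose much larger difference is described above. Rps9 was lower by a log2 fold change of -0.14 (adjusted p = 0.0033, edgeR), Rpl8 by -0.14 (adjusted p = 0.00228, edgeR), Rpl32 by -0.14 (adjusted p = 0.00961, edgeR) and Rps21 by -0.22 (adjusted p = 0.000366, edgeR).

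For most parents the difference was within the range of the libraries. Groups did not overlap for 7 of 73 parents (9.59%), all lower in NZO/HlLtJ, against 12.2% of all genes. The summed level of the parents was 7144 ± 280.1 CPM in NZO/HlLtJ, 8233 ± 436.0 CPM in CAST/EiJ and 7915 ± 311.0 CPM in C57BL/6J (SD, n = 8 each). With library totals in place of TMM the number of parents called lower was 23, with 62 of 73 negative. The median of all genes under that scaling was 0.05 and that of the parents -0.09, a gap of about the same size. The sample identifiers in the titles fall into 3 ranges, which may or may not mark batches, and the first holds no NZO/HlLtJ library. With the range as a block, 39 parents were called lower and 65 of 73 were negative, with a median of -0.13. For library totals and for the block, the share of all genes called is not given here.

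Cell type markers differed between these strains too, where 17.9% of all genes were called higher and 17.6% lower. All 8 fibroblast markers were called higher in NZO/HlLtJ, with summed levels of 1512 to 1898 CPM in NZO/HlLtJ against 1074 to 1180 CPM in C57BL/6J. Macrophage markers were lower, 4 of 8 called, with 210.1 to 299.0 CPM in NZO/HlLtJ and 247.0 to 311.2 CPM in C57BL/6J. Schwann cell markers were called higher in 3 of 4 cases. Endothelial markers were called lower in 2 of 8 cases and smooth muscle and pericyte markers in 2 of 6. Of 10 cardiomyocyte markers, 2 were called higher and 3 lower. With so few markers per list, such small counts are hard to set apart from the shares of all genes. The skeletal muscle list summed to 2557 to 4824 CPM in NZO/HlLtJ and 1332 to 1734 CPM in C57BL/6J, with 2 of 5 tested called higher. That list includes Acta1 and Ckm, which heart muscle also expresses, so its sum is no measure of skeletal muscle cells. The part of these differences, and of the mitochondrial share, in the lower ribosomal protein levels was not tested. In whole hearts, fewer cells of a type and less RNA per cell cannot be told apart.

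**Figure D4:**
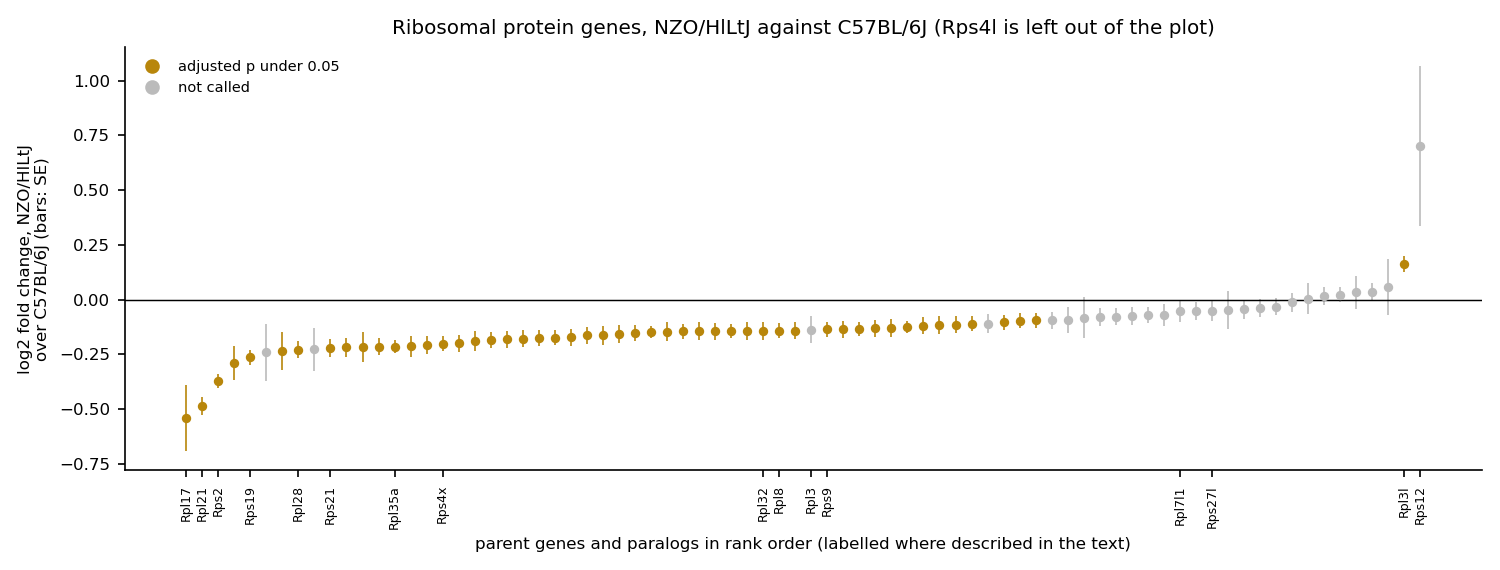
Log2 fold change of NZO/HlLtJ over C57BL/6J (y axis, bars are SE) for each tested parent gene and paralog in rank order, with Rps4l left out and genes described in the text labelled. Filled gold points are called at an adjusted p under 0.05 and grey points are not. All gold points but Rpl3l lie below 0.

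Of the 28 copies that could be tested in this comparison, 5 were lower and none was higher (17.9%, against 17.6% of all genes called lower). Rps3a3 stood at 0 to 0.0540 CPM in NZO/HlLtJ, 0 to 0.132 CPM in CAST/EiJ and 0.355 to 0.886 CPM in C57BL/6J. Rpl28-ps1 had no counts in any NZO/HlLtJ library, at most 0.0439 CPM in CAST/EiJ, and 0 to 4.69 CPM in C57BL/6J. These levels lie near the limit of counting.

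NZO/HlLtJ against CAST/EiJ gave 73 called members, 18 higher and 55 lower, of 108 tested (67.6%), with 60.3% of all genes called. Parents were lower in 44 cases and higher in 9, with a median of -0.12, where 30.5% of all genes were higher and 29.8% lower. The family sums gave 6 higher and 47 lower of 80, with 60.3% of all rows called, and the wider sums 5 higher and 46 lower, with 60.4%. The largest differences left in the wider sums were Rps15 at 0.90 higher, Rpl3 at -0.52, Rps19 at -0.48 and Rps9 at 0.35 higher in NZO/HlLtJ on the log2 scale. Rps19 reached 44.0 to 59.3 CPM in NZO/HlLtJ and 65.6 to 76.8 CPM in CAST/EiJ (adjusted p = 6.63e-10, edgeR). This comparison shares its libraries with the 2 before it. Here too all 8 fibroblast markers were higher in NZO/HlLtJ, with summed levels of 1512 to 1898 CPM in NZO/HlLtJ and 912.2 to 1257 CPM in CAST/EiJ. Of 8 T and NK cell markers 6 were higher, with 1.496 to 3.73 CPM in NZO/HlLtJ and 0.498 to 0.980 CPM in CAST/EiJ, and of 4 Schwann cell markers 3 were higher, with 8.95 to 11.7 CPM in NZO/HlLtJ and 3.90 to 7.80 CPM in CAST/EiJ. Endothelial markers were lower in 3 of 8 cases, with 1106 to 1348 CPM in NZO/HlLtJ and 1208 to 1757 CPM in CAST/EiJ. Their part in the lower ribosomal protein levels was not tested.

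Other genes of the translation machinery were read from lists. Unlike the members, they were not aligned to copies or summed with them. Whether their strain differences, such as those of Fau and Rplp1 below, would remain in such sums was not tested. Of 6 ribosome parts outside the symbol rule, 5 were called lower in NZO/HlLtJ hearts against C57BL/6J, where 17.6% of all genes were lower. Rplp0, the base of the ribosomal P stalk, averaged 320.5 CPM in NZO/HlLtJ and 409.7 CPM in C57BL/6J (log2 fold change -0.36, adjusted p = 3.7e-09, edgeR). Fau, a fusion of a ubiquitin-like protein with a small subunit protein, had a log2 fold change of 0.05 and was not called.

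In CAST/EiJ, 3 of these 6 were higher and 1 lower than in C57BL/6J (66.7% called, against 58.8% of all genes). Fau averaged 62.6 CPM in CAST/EiJ and 21.8 CPM in C57BL/6J, and Rplp1 of the P stalk averaged 214.7 CPM in CAST/EiJ and 158.4 CPM in C57BL/6J. All 6 were lower in NZO/HlLtJ than in CAST/EiJ, where 29.8% of all genes were lower.

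Mitochondrial ribosomal protein genes (Mrpl and Mrps), which build the separate ribosome of the mitochondrion, had 9 higher and 19 lower of 78 in NZO/HlLtJ against C57BL/6J (35.9% called, against 35.5% of all genes, with a median of -0.06). They had 38 higher and 17 lower in CAST/EiJ against C57BL/6J (70.5% called, against 58.8% of all genes), with a median of 0.12. The list of translation factors with TOP mRNAs also holds other genes, among them Npm1, Hnrnpa1 and the noncoding Gas5, Snhg1, Snhg8 and Snhg12. As a whole it had 2 higher and 5 lower of 24 in NZO/HlLtJ against C57BL/6J, with a median of 0.00. The count of lower genes on the list was thus near the background of 17.6%. Eef1a2, the elongation factor of adult muscle, was 0.21 higher (adjusted p = 5.9e-05, edgeR).

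Ribosome biogenesis genes had 3 higher and 7 lower of 39 in NZO/HlLtJ and 12 higher and 9 lower in CAST/EiJ, each against C57BL/6J. The shares called were 25.6% in NZO/HlLtJ and 53.8% in CAST/EiJ, below the 35.5% and 58.8% of all genes in those comparisons. Genes of the mTOR and LARP1 pathway had 5 higher and 3 lower of 16 in NZO/HlLtJ and 7 higher and 4 lower in CAST/EiJ, with 50% called in NZO/HlLtJ and 68.8% in CAST/EiJ. Larp1 itself averaged 120.3 CPM in NZO/HlLtJ, 122.1 CPM in CAST/EiJ and 117.4 CPM in C57BL/6J and was not called in either comparison. Genes of ribosome rescue and quality control had 2 higher and 1 lower of 15 in NZO/HlLtJ and 6 higher and 1 lower in CAST/EiJ, with 20% called in NZO/HlLtJ and 46.7% in CAST/EiJ, both below the share of all genes.

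The 5′ ends of the members were examined for a TOP-like tract, searched on the gene's strand as a C within 5 bases of the annotated start (RefSeq, GRCm38.p6) followed by at least 5 bases that are each C or T. It was found for 24 of the 54 parents with a window (44.4%), for 4 of 69 mitochondrial ribosomal protein genes (5.80%) and for 3229 of 27025 genes in all (11.95%). The starts of Rps9 and Rps15 are shown, parents whose differences in CAST/EiJ the sums left in place. They run from 15 bases before the annotated start to 15 from it on, with the tract in capitals. Rps9 lies at chr7:3704026-3704055 and Rps15 at chr10:80292416-80292445, both on the plus strand. Rps9 holds a tract, and for Rps15 no tract was found at this start. The deposited annotation begins Rps9 at base 3703993 and Rps15 at base 80292453, both outside the windows shown. A tract at another start would be missed, for these genes and in the counts above, and other starts were not tested.
Rps9: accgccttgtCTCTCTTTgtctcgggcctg
Rps15: cccggcagagctcgcgataactgcgcaagc

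Diet was compared within each strain, 4 libraries on 44% fat against 4 on 10% fat. No member was called by edgeR in any strain, where 0% of all genes were called in NZO/HlLtJ, 0% in CAST/EiJ and 0.0407% in C57BL/6J. At an unadjusted p under 0.05 there were 6 members of 108 in NZO/HlLtJ (5.56%, against 7.17% of all genes), 20 in CAST/EiJ (18.5%, against 6.61%) and 2 in C57BL/6J (1.85%, against 5.62%). Only the share in CAST/EiJ was above that of all genes. DESeq2 called 0 in NZO/HlLtJ, 3 in CAST/EiJ and 0 in C57BL/6J, and limma-voom called 0 in each. The share of all genes called by these other tests is not given here.

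In CAST/EiJ the parents leaned to lower values on the 44% fat diet. Of 73 fold changes 71 were negative, with a median of -0.09 on the log2 scale, against 52.01% negative and a median of -0.01 over all genes. The lean was not particular to the parents. Negative were 67 of 78 mitochondrial ribosomal protein genes, all 6 ribosome parts outside the symbol rule and 30 of 39 ribosome biogenesis genes. Each of these lists had a median of -0.06. In the TOP, the mTOR and LARP1, and the rescue lists 15 of 24, 9 of 16 and 11 of 15 were negative. The summed level of the parents was 7975 ± 301.7 CPM on 44% fat and 8491 ± 417.9 CPM on 10% fat (SD, n = 4 each). The libraries of the 2 diets did not overlap for 4 of 73 parents (5.48%), all lower on 44% fat, against 2.78% of all genes. Without CAST/EiJ Male 10% fat replicate 1 the median over parents was -0.05 with 63 of 73 negative, and within the first range of the sample identifiers it was -0.12 with 69 negative. Outside the first range, no range held CAST/EiJ libraries of both diets, so diet and range cannot be told apart there.

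Rps13 had the smallest p of all members in this comparison. Its levels were 14.9, 17.4, 14.3 and 14.1 CPM on 44% fat, against 18.4, 18.4, 21.9 and 17.7 CPM on 10% fat, with no overlap. The log2 fold change was -0.33 ± 0.06 (SE, adjusted p = 0.165, edgeR), and most of the family's counts in this strain lay on Rps13-ps1. Rpl23a, also without overlap, had a log2 fold change of -0.14 (adjusted p = 0.503, edgeR), and Rpl38 one of -0.20 (adjusted p = 0.452, edgeR).

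In NZO/HlLtJ 51 of 73 parents were negative, with a median of -0.02. Their summed level was 7079 ± 263.5 CPM on 44% fat and 7209 ± 319.9 CPM on 10% fat (SD, n = 4 each), and no parent was without overlap, against 3.34% of all genes. Rpl3l stood at 148.9, 161.7, 163.2 and 162.6 CPM on 44% fat, against 171.9, 183.9, 169.5 and 168.4 CPM on 10% fat. Its ranges did not overlap, and it did not pass the test (log2 fold change -0.12 ± 0.05, SE, adjusted p = 0.669, edgeR). Rpl19 had the smallest p, with a log2 fold change of 0.42 (adjusted p = 0.605, edgeR).

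In C57BL/6J the median over parents was 0.00, and their summed level was 7907 ± 343.4 CPM on 44% fat and 7923 ± 327.9 CPM on 10% fat (SD, n = 4 each). Rps20 was the only parent without overlap (1.37%, against 4.11% of all genes), with a log2 fold change of 0.09 (adjusted p = 0.931, edgeR). The smallest p was that of Rpl5, with a log2 fold change of 0.24 (adjusted p = 0.842, edgeR).

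**Figure D5:**
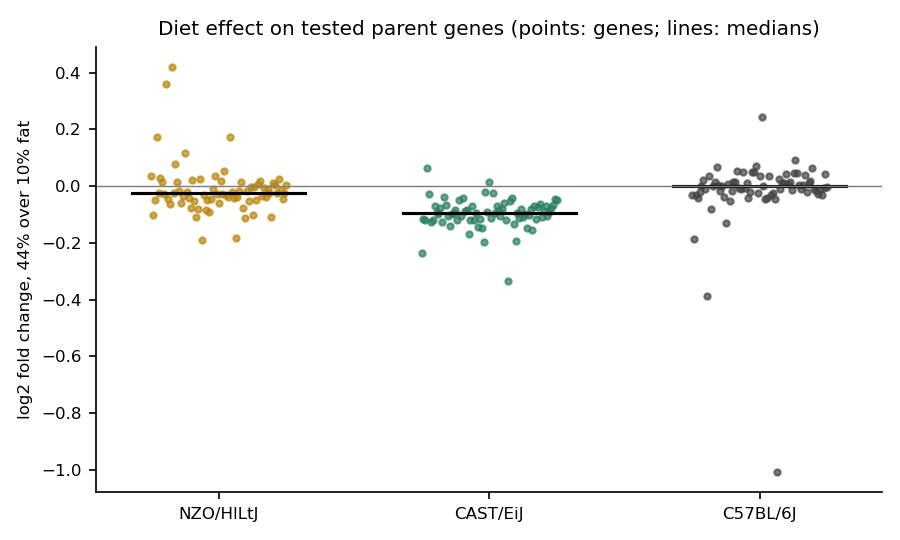
Log2 fold change of 44% over 10% fat for the 73 parent genes (points) in NZO/HlLtJ, CAST/EiJ and C57BL/6J, with lines at the medians of -0.02, -0.09 and 0.00. No point passes the test in any strain.

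The diet effects were also compared between strains, and no member was called. Of all genes, 0.00581% were called for NZO/HlLtJ against C57BL/6J, 0% for CAST/EiJ against C57BL/6J and 0% for NZO/HlLtJ against CAST/EiJ. At an unadjusted p under 0.05 there were 5 members for NZO/HlLtJ against C57BL/6J (4.63%, against 4.75% of all genes), 16 for CAST/EiJ against C57BL/6J (14.8%, against 6.53%) and 7 for NZO/HlLtJ against CAST/EiJ (6.48%, against 4.64%). DESeq2 called 0, 1 and 1 in the same order, and limma-voom called 0 in each. The smallest p for CAST/EiJ against C57BL/6J was that of Rps13, with a difference of -0.36 (adjusted p = 0.634, edgeR). For NZO/HlLtJ against C57BL/6J it was that of Rpl3l, at -0.22 (adjusted p = 0.973, edgeR).

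Between 12 male and 12 female libraries no member was called by edgeR, where 0.372% of all genes were. At an unadjusted p under 0.05 there were 9 members (8.33%, against 8.95% of all genes). DESeq2 called 1 and limma-voom called 0. Rps23-ps1 had the smallest p, at 34.8 ± 3.73 CPM in males and 31.3 ± 4.41 CPM in females (SD, n = 12 each), a log2 fold change of 0.16 (adjusted p = 0.369, edgeR). Rpl22l1 averaged 17.0 CPM in males and 15.4 CPM in females (adjusted p = 0.472, edgeR).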

How the data were processed

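Heart RNA from 24 libraries was prepared as poly(A) mRNA libraries and sequenced as paired ends, per the labels' protocols. The submitters' processing notes name GRCm38 and DESeq2 without a role; no aligner or counter is given there or in the other sources used here. Variance-stabilized values were not used. The authors deposited expected counts (estimated counts per gene, 19.3% not whole at a tolerance of 1e-06), which were rounded here. Library totals ranged from 30205100 to 52254100.

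Genes were filtered with edgeR's filterByExpr (minimum count 10, minimum total 15), scaled by TMM and fitted with 12 group means in edgeR 4.0.16 (glmQLFit, robust; glmQLFTest; R 4.3.3), with Benjamini-Hochberg adjustment over 17203 genes. The counts of a family were also summed before refitting the whole table, by symbol and, as an addition chosen after seeing the data, with genes of other names that aligned to the parent (BLAST 2.17.0, at least 95% identity over at least 150 bases and 50% of the copy). DESeq2 1.42.0 and limma 3.58.1 were alternatives. On simulated counts for CAST/EiJ against C57BL/6J (16753 genes, 200 of them changed), 80% of 1.5-fold and 94% of 2-fold changes were recovered with 6 false calls. The simulation held far fewer changed genes than were called in the data. It does not measure the recovery of smaller changes or of diet effects.

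The members, gene lists and tests were chosen with earlier results of these data known. Named genes were, per comparison, called parents and paralogs of at least 1 CPM with the largest changes or smallest adjusted p, called copies by the same rule, the paralogs with their parents, and the 3 smallest p where fewer than 3 were called; Rps20, Rpl38 and the genes without overlap under diet were named after their values were seen.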

Additional observations from a re-analysis of the deposited data

Results flagged for a closer look

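Within a strain, single libraries stood far from the other 7 by Dixon's gap criterion in 8 of 162 tests, 159 of them on 53 members in each strain's 8 libraries and 3 on the members' share of counts. Chance flags about 1 test in 20, which is close to the share found. Rpl5 was 15.4 CPM in C57BL/6J Female 44% fat replicate 2, against 10.0 to 11.7 CPM in the others of the strain. Rps12 was 2.75 CPM in C57BL/6J Female 10% fat replicate 1, against 0.357 to 1.09 CPM, and in the same library Rpl3 was 102.2 CPM, against 122.5 to 136.2 CPM. NZO/HlLtJ Female 10% fat replicate 1 was high in Rpl21, at 55.5 CPM against 47.2 to 50.8 CPM, and in Rps4x, at 208.0 CPM against 174.5 to 189.6 CPM. Rps13-ps1 was 1.36 CPM in NZO/HlLtJ Male 10% fat replicate 2, against 0.0590 to 0.432 CPM. At very low levels, Rpl19-ps11 was 0.491 CPM in CAST/EiJ Female 44% fat replicate 1, against 0.0491 to 0.242 CPM, and Rpl9-ps6 was 0.138 CPM in CAST/EiJ Female 10% fat replicate 2, against 0 to 0.0446 CPM.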

How the results depend on the processing

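No paired analysis was possible because the labels give the libraries no replicate numbers. With library totals in place of TMM, NZO/HlLtJ against C57BL/6J gave 28 called members (1 higher, 27 lower) and 26 called families, and the split for CAST/EiJ against C57BL/6J was 37 higher and 26 lower, beside 30 and 35 with TMM. Within the first range of sample identifiers, CAST/EiJ against C57BL/6J gave 43 called members, and NZO/HlLtJ has no library there. With the identifier range as a block, NZO/HlLtJ against C57BL/6J gave 44. DESeq2 called 3 members for diet in CAST/EiJ (Rps13, Rpl27-ps3 and Rpl17-ps8) and 1, Rpl17-ps8, each for the difference of diet effects in CAST/EiJ against C57BL/6J and in NZO/HlLtJ against CAST/EiJ and for sex. Leaving out each library in turn gave 44 to 60 called members for NZO/HlLtJ against C57BL/6J, 63 to 70 for CAST/EiJ against C57BL/6J and 67 to 81 for NZO/HlLtJ against CAST/EiJ. The family sums gave 43 to 61, 40 to 46 and 47 to 58 in the same order. Diet gave 0 to 1 in NZO/HlLtJ and in CAST/EiJ and 0 to 0 in C57BL/6J, the differences of diet effects 0 to 1 at most, and sex 0 to 1. The shares of all genes called under these other settings and tests are not given here. The counts therefore show only how the calls moved with the processing. Rps13 was called for diet in CAST/EiJ without CAST/EiJ Female 10% fat replicate 2 (adjusted p = 0.012, edgeR), Rpl17-ps8 without CAST/EiJ Female 44% fat replicate 1 (log2 fold change -4.24 in place of -1.20, adjusted p = 0.00083, edgeR), Rpl27-ps3 without CAST/EiJ Male 44% fat replicate 1 (2.44 in place of 2.01, adjusted p = 0.00247, edgeR) and, in NZO/HlLtJ, Rpl37rt without NZO/HlLtJ Male 44% fat replicate 1 (1.85 in place of 1.31, adjusted p = 0.0323, edgeR). Leaving out the first of these CAST/EiJ 44% fat libraries also gave the call of Rpl17-ps8 for sex (adjusted p = 0.000434, edgeR). No called gene changed direction under the alternatives run on single genes; the sums over families, described with the results, did change the sign of some parents, among them Rpl23a, Rpl5 and Rpl7. Of 92 called results of named genes, 12 lost the call in at least 1 alternative, most often Rps23 for NZO/HlLtJ against CAST/EiJ (17) and Rps23-ps1 for NZO/HlLtJ against C57BL/6J (15). The cause was not tested. Low copy counts limit what could be tested for 74 of 102 copies.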
